A study of Mus musculus with 6 samples.

Results

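Bcl11b, Foxp1, Foxp2, Rarb, Dlx6, Six3, Isl1, Ebf1, Zfp521 and Sp9 are transcription factors of spiny projection neurons, the GABA neurons that make up most of the striatum. They were taken by gene name from a deposited table of 34745 genes, and all 10 were found and passed the filter on low counts. By the class each was assigned, 6 are shared by both kinds of spiny neuron (Bcl11b, Foxp1, Foxp2, Rarb, Dlx6, Six3), 3 belong to the direct pathway (Isl1, Ebf1, Zfp521) and 1 to the indirect pathway (Sp9). RNA came from the dorsal striatum of C57BL/6 mice aged 1 year: 3 samples heterozygous for Ash1l (Ash1l het) and 3 wild type (WT). Ash1l encodes a histone methyltransferase acting on histone H3. The labels name no treatment and do not describe the Ash1l allele. Nothing in them ties each sample to its own animal, and the p-values below therefore cover only sample-to-sample spread, which may be technical.

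Spiny projection neurons arise from the lateral ganglionic eminence and split into a direct pathway, marked by the dopamine receptor Drd1 and substance P, and an indirect pathway, marked by Drd2, the adenosine receptor Adora2a and enkephalin. Bcl11b, Foxp1, Foxp2, Rarb, Dlx6 and Six3 act in the differentiation of these neurons, and several stay expressed in the adult. Isl1, Ebf1 and Zfp521 are known for the development of direct-pathway neurons, and Sp9 for that of indirect-pathway neurons. None is found in spiny neurons alone: Isl1 also marks cholinergic interneurons, Ebf1 mural cells of vessels, and Bcl11b, Foxp1 and Foxp2 layers of the cortex.

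The libraries held 12080663 to 18798694 counts. Spiny neuron genes were abundant, as the tissue label says: in WT, Ppp1r1b, which encodes DARPP-32, averaged 249.9 FPKM (counts scaled by gene length and library total), Drd1 92.1, Drd2 250.2 and Penk, the enkephalin precursor, 592.4. Ash1l itself stood at 281, 198 and 253 CPM (counts scaled by library total, on the TMM scale) in Ash1l het against 308, 295 and 293 CPM in WT, a log2 fold change of -0.29 with SE 0.13 (edgeR quasi-likelihood adjusted p = 0.858). Each Ash1l het library lay below each WT library for the targeted gene, without a called difference, and the value was -0.16 without Ash1l het replicate 2 and -0.14 when scaled to shared spiny neuron effector genes. The labels' protocol describes males, but Xist lay at 1956 CPM or more in all 6 libraries and Y-linked genes had at most 1 count. Ash1l het replicates 1 and 2 stood apart from the other 4 libraries on the first principal component (-28.1 and -28.5 against 4.18 to 23.8), which held 27.9% of the variance.

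The factors do not lie in one cluster of the genome. On GRCm38, in the deposited coordinates with strands from GENCODE vM21, Bcl11b (ENSMUSG00000048251) spans chromosome 12, 107910403 to 108003602, minus strand. Foxp1 (ENSMUSG00000030067), Foxp2 (ENSMUSG00000029563) and Dlx6 (ENSMUSG00000029754) all lie on chromosome 6, Foxp1 at 98925338 to 99522721 on the minus strand, Foxp2 at 14901349 to 15441977 and Dlx6 at 6863334 to 6868568, both on the plus strand. Rarb (ENSMUSG00000017491) spans chromosome 14, 16430842 to 16575472, minus strand in the deposited bounds, and Six3 (ENSMUSG00000038805) chromosome 17, 85613608 to 85629302, plus strand. Isl1 (ENSMUSG00000042258) spans chromosome 13, 116298281 to 116309689, minus strand, Ebf1 (ENSMUSG00000057098) chromosome 11, 44617317 to 45008091, plus strand, and Sp9 (ENSMUSG00000068859) chromosome 2, 73271925 to 73284706, plus strand.

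Promoter windows, 250 bases before to 50 bases after a RefSeq start site (GRCm38.p6), were at hand for 7 of the 10 factors, with 10 windows in all. The Rarb window is shown because it holds the retinoic acid response element through which this receptor gene is known to answer its own ligand. The element, in capitals, was found as GGTTCA and AGTTCA with 5 bases between them, at bases -53 to -37 from the start, on chr14:16575427-16575726, minus strand. That pattern, searched on both strands, was present in 2 of 32851 windows of the same length (0.00609%). The Rarb window is among the 2, and the pattern searched was the Rarb type itself, so its rarity does not bear on the find. The consensus repeat, AGGTCA and AGGTCA with 5 bases between them, had 0 matches in the Rarb window. It was present in 3 of the 32851 windows (0.00913%).
Rarb: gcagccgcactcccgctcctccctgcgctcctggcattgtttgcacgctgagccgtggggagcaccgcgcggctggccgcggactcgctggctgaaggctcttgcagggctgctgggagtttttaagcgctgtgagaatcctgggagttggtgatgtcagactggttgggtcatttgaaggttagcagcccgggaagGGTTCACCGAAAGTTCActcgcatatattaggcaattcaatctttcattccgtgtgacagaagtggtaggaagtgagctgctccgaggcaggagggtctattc

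The windows of Sp9 and Bcl11b are shown because these factors had the lowest fitted levels in Ash1l het, and they differ in base composition. The Bcl11b window (chr12:108003365-108003664, minus strand) is 43.0% G and C with 9 CpG sites and holds 1 TATAAA (capitals, here as its reverse complement), a pattern in 13.6% of windows. The Sp9 window (chr2:73271676-73271975, plus strand) is 63.7% G and C with 25 CpG sites and holds 2 CCAAT (capitals, as the reverse complement), a pattern in 37.4% of windows, both searched on both strands. The median window had 52.7% G and C and 7 CpG sites. These matches describe letters and show nothing about binding.
Bcl11b: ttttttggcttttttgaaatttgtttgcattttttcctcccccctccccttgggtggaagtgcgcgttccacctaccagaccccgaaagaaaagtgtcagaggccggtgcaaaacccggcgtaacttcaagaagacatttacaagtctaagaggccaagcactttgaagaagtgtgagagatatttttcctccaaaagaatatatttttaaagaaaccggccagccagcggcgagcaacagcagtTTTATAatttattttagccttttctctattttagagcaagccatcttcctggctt
Sp9: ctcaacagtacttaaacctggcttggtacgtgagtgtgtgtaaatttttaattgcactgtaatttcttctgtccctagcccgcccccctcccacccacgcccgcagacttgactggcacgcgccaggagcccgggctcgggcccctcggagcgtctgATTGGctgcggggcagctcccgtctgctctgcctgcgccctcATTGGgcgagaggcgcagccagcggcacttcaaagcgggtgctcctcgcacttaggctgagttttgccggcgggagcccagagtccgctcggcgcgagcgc

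The 10 factors covered a wide range of levels per length in WT striatum. Rarb (48.0 ± 1.46 FPKM, SD, n = 3 here and below) and Bcl11b (42.1 ± 1.72 FPKM) were the most abundant, followed by Foxp1 (11.9 ± 6.19 FPKM), Dlx6 (8.26 ± 0.164 FPKM) and Six3 (7.81 ± 0.706 FPKM). Zfp521 (4.55 ± 0.497 FPKM) and Sp9 (4.04 ± 0.235 FPKM) came next. Ebf1 (2.64 ± 0.0329 FPKM), Isl1 (2.11 ± 0.359 FPKM) and Foxp2 (1.92 ± 0.127 FPKM) were the lowest. Per length, the shared class thus held both the most and the least abundant factor, and the 3 direct-pathway factors lay in the lower part of the range with Sp9 among them. Neighbours whose ranges of mean ± SD overlapped were Foxp1, Dlx6 and Six3, then Zfp521 and Sp9, and last Isl1 and Foxp2.

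The order per length depends on the gene length used. Dividing counts by FPKM gives the length behind each deposited value, and for 8 of the 10 factors it was above the exons of GENCODE vM21 merged, among them Foxp1, with 24319 bases against 13751, and Foxp2, with 24889 against 16346. For Rarb it was below them, at 3034 bases against 5265, and the deposited span of Rarb is shorter than the GENCODE gene, which runs from 16430839 to 16819156. With merged exon lengths Bcl11b was highest, at 55.1 ± 2.26 on the scale of FPKM, and Rarb second, at 27.7 ± 0.839. The merged exons of Rarb reach beyond its deposited span, so counts and length may not match there. That value may be too low, and the place of Rarb below Bcl11b is uncertain. Foxp2 (2.92 ± 0.194) and Isl1 (2.87 ± 0.489) were then the lowest, within each other's spread.

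**Figure D1:**
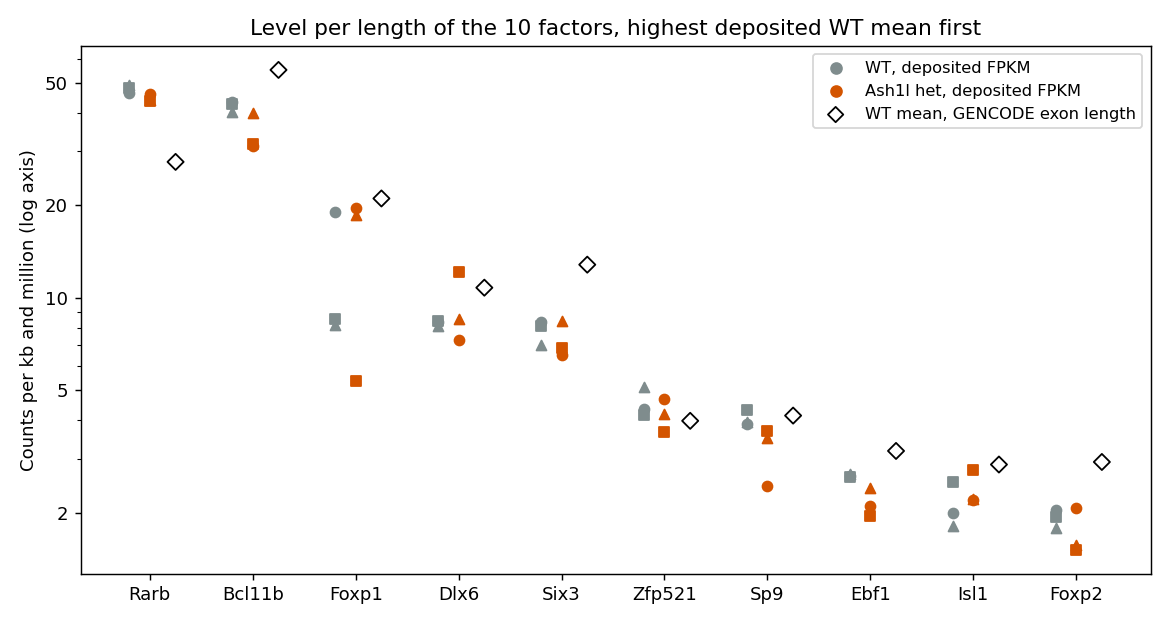
Level per length of each factor (log axis) in 3 WT and 3 Ash1l het libraries, with the WT mean on merged exon lengths as open diamonds. Circles, squares and triangles are replicates 1, 2 and 3; Rarb and Bcl11b change places between the 2 lengths, and the Foxp1 points of each genotype lie far apart.

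In Ash1l het against WT, none of the 10 factors passed the test across all genes (edgeR quasi-likelihood, Benjamini-Hochberg adjusted p under 0.05). Over all 15267 genes 2 passed, or 0.0131%, and both were higher in Ash1l het. DESeq2, the exact test of edgeR and limma-voom also called 0 of the 10, and 2 of them, Ebf1 and Bcl11b, had an unadjusted edgeR p under 0.05 and were lower, as were 2.67% of all genes (5.78% in either direction). By sign 7 factors were lower in Ash1l het, where 48.6% of all tested genes were. The median log2 fold change of the 10 was -0.15, against 0.0063 for all tested genes. In bulk tissue fewer spiny neurons and less of a transcript per neuron cannot be told apart. The fitted 95% interval held 100% of WT for 8 of the 10 and held 50% for Foxp1 only.

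**Figure D2:**
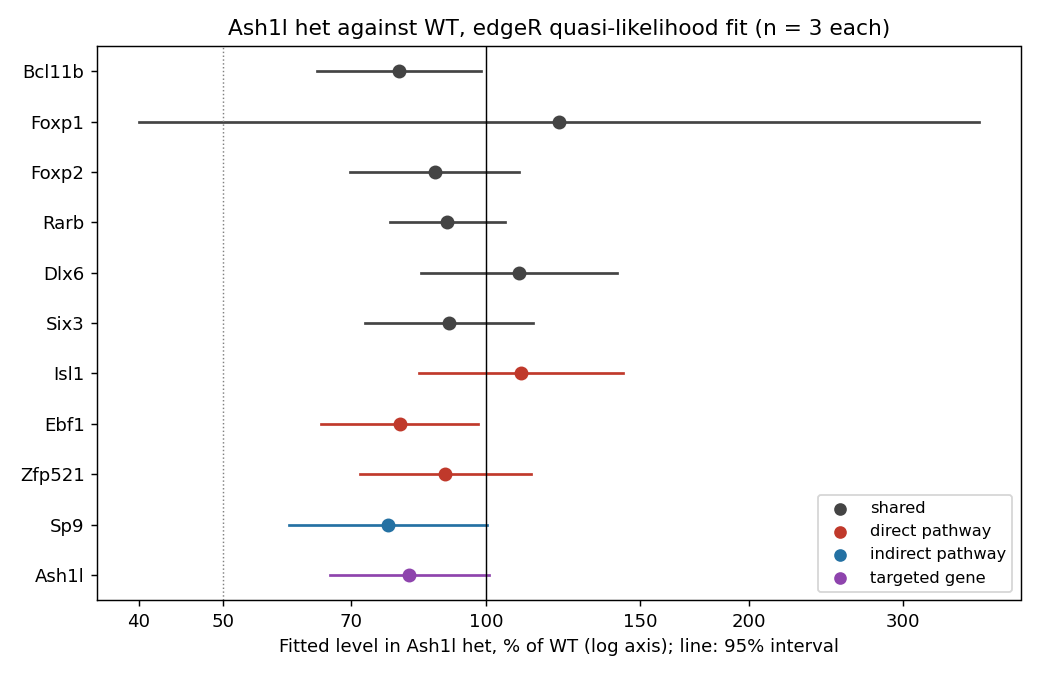
Fitted level in Ash1l het as a percentage of WT (log axis) for the 10 factors and Ash1l, with 95% intervals from the edgeR fit on 3 libraries per genotype. The points run from 77.2% (Sp9) to 121.1% (Foxp1), and the Foxp1 interval, 40.03% to 366.6%, is the widest.

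Bcl11b, a zinc finger factor also called CTIP2 that spiny neurons need to mature, had the highest count of the 10. It stood at 328, 316 and 438 CPM in Ash1l het replicates 1, 2 and 3 against 460, 473 and 429 CPM in WT. Replicates 1 and 2 lay below every WT library, while replicate 3 lay inside the WT range, so the groups overlapped. Ash1l het was fitted at 79.5% of WT (95% interval 64.0% to 98.7%), with a log2 fold change of -0.33 with SE 0.14 (edgeR unadjusted p = 0.0397, adjusted p = 0.857). Leaving out Ash1l het replicate 3 gave -0.50 (edgeR adjusted p = 0.200), and with replicates 1 and 2 both left out, a setting chosen after seeing the data, it was -0.052.

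Rarb, the beta receptor for retinoic acid, varied least between libraries of a genotype. It stood at 138, 125 and 138 CPM in Ash1l het against 141, 152 and 151 CPM in WT, so every Ash1l het library lay below every WT library, by a small margin. Ash1l het was fitted at 90.2% of WT (95% interval 77.5% to 105.0%), with a log2 fold change of -0.15 with SE 0.10 (edgeR adjusted p = 0.889). With Ash1l het replicates 1 and 2 both left out it was -0.11. The end of Rarb overlaps Top2b on the opposite strand. Top2b, a topoisomerase gene looked at after its values were seen, stood at 122, 113 and 117 CPM in Ash1l het against 113, 113 and 95.2 CPM in WT, a log2 fold change of 0.13.

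Foxp1, a forkhead factor abundant in spiny neurons of both pathways, varied most. It stood at 471, 123 and 469 CPM in Ash1l het against 463, 216 and 199 CPM in WT. In each genotype the libraries split widely: the highest was 3.83-fold above the lowest in Ash1l het and 2.33-fold in WT, while counting error at this depth was 1.41%. Its SD within genotypes was 0.92 on the log2 scale, rank 17 among the 3192 tested genes that averaged 1000 counts or more, whose median was 0.14. Ash1l het replicates 1 and 3 and WT replicate 1 formed the high level, so the split did not follow genotype. The log2 fold change was 0.28 with SE 0.63 (edgeR adjusted p = 0.964). It was 0.018 without Ash1l het replicate 1, 0.017 without Ash1l het replicate 3, 0.68 without Ash1l het replicate 2, 0.77 without WT replicate 1, 0.094 without WT replicate 2 and 0.059 without WT replicate 3.

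The 8 cortical glutamatergic markers, of which 0 were called and all were detected, also varied between libraries. Their summed level was 119, 37.7 and 78.3 CPM in Ash1l het and 93.1, 64.9 and 76.8 CPM in WT. The part of cortical tissue in the Foxp1 values was not tested. The gene model Gm20696, which overlaps Foxp1 on the same strand, had 68 counts over the 6 libraries, and adding it together with a further overlapping model, Gm20705, to Foxp1 left the log2 fold change at 0.28.

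**Figure D3:**
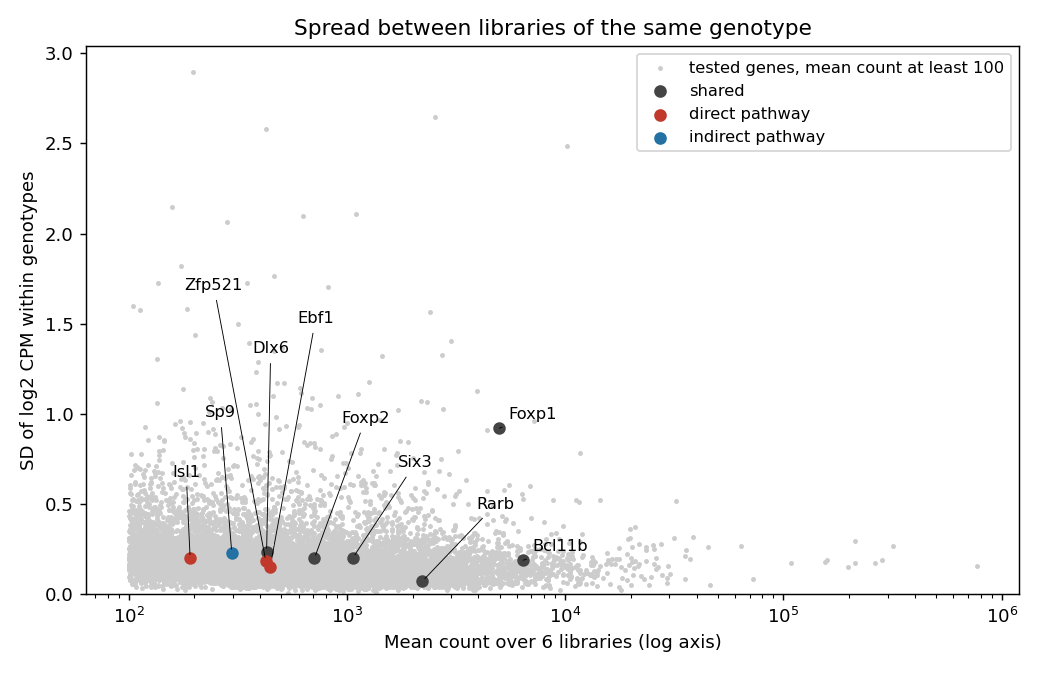
SD of log2 CPM between libraries of the same genotype against mean count (log axis) for tested genes averaging 100 counts or more (grey) and the 10 factors (coloured by class). Foxp1 stands at 0.92, while the other 9 factors lie between 0.072 (Rarb) and 0.23 (Dlx6).

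Foxp2, the forkhead relative of Foxp1, known for its part in vocal learning, stood at 51.1, 35.4 and 40.5 CPM in Ash1l het against 50.8, 49.9 and 44.8 CPM in WT. Ash1l het replicate 1 lay above every WT library and the other 2 below. The log2 fold change was -0.20 with SE 0.14 (edgeR adjusted p = 0.897). It was -0.35 without Ash1l het replicate 1 and -0.085 without replicate 2, so these 2 libraries pulled it in opposite directions.

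Dlx6 and Six3 are homeodomain factors of the early ganglionic eminence that were still measurable at 1 year. Dlx6 stood at 22.4, 35.5 and 27.3 CPM in Ash1l het against 25.8, 27.02 and 25.2 CPM in WT. The WT libraries lay within a narrow band, with 1 Ash1l het library below it and the other two above it. The log2 fold change was 0.13 with SE 0.17 (edgeR adjusted p = 0.932), and it was 0.27 without Ash1l het replicate 1 and turned to -0.066 without replicate 2.

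Six3 stood at 57.6, 57.5 and 77.7 CPM in Ash1l het against 74.5, 75.1 and 63.0 CPM in WT. As with Bcl11b, replicates 1 and 2 were the low libraries and replicate 3 was not. The log2 fold change was -0.14 with SE 0.14 (edgeR adjusted p = 0.910), and it turned to 0.13 with replicates 1 and 2 both left out. With single libraries left out it was -0.067 without Ash1l het replicate 1 or 2, -0.30 without Ash1l het replicate 3 (edgeR adjusted p = 0.410) and -0.22 without WT replicate 3.

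Both genes share their locus with transcripts of the opposite strand, and the sources used here do not say if reads were counted by strand, although the library kit was stranded, so their counts are uncertain. Six3os1, the long noncoding RNA opposite Six3, stood at 13.2, 18.1 and 20.5 CPM in Ash1l het against 28.0, 23.8 and 28.6 CPM in WT. All Ash1l het libraries lay below all WT libraries, with a log2 fold change of -0.63 with SE 0.17 (edgeR unadjusted p = 0.00490, adjusted p = 0.741), the largest of any gene in or beside the factors and still not called. Dlx6os1, the long noncoding RNA (Evf2) opposite Dlx6, stood at 51.5, 46.2 and 49.1 CPM in Ash1l het against 51.7, 51.8 and 53.6 CPM in WT, for a fitted log2 change of -0.10 ± 0.10 (SE; edgeR adjusted p = 0.910). Dlx5, the neighbouring homeobox gene, stood at 29.2, 19.2 and 33.2 CPM in Ash1l het against 26.0, 33.4 and 33.1 CPM in WT, for a fitted log2 change of -0.18 ± 0.20 (SE; edgeR adjusted p = 0.923). With the counts of overlapping transcripts added, the log2 fold change was -0.26 for Six3 (SE 0.13) and -0.019 for Dlx6 (SE 0.092).

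The direct-pathway factors differed in sign, and none passed the test. Isl1, a LIM homeodomain factor, stood at 11.8, 13.9 and 12.4 CPM in Ash1l het against 10.8, 14.0 and 9.84 CPM in WT. All Ash1l het libraries lay inside the WT range (log2 fold change 0.13, SE 0.17, edgeR adjusted p = 0.932). That value was 0.30 without WT replicate 2, 0.086 without WT replicate 1, 0.028 without WT replicate 3 and 0.061 without Ash1l het replicate 2. Isl1 had the fewest counts of the 10, with a counting error of 7.23% per library, and the fitted interval ran from 83.9% to 143.7% of WT. The 7 cholinergic interneuron markers, all detected and none called, summed to 158, 160 and 186 CPM in Ash1l het and to 161, 183 and 168 CPM in WT, and how much of Isl1 came from those cells was not tested.

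Ebf1, a helix-loop-helix factor, stood at 24.5, 21.5 and 29.1 CPM in Ash1l het against 31.0, 31.8 and 31.6 CPM in WT. The WT libraries were nearly equal, with a coefficient of variation of 1.37%, which is below the counting error of 4.74%, and every Ash1l het library lay below them. Ash1l het was fitted at 79.6% of WT (95% interval 64.7% to 98.0%), with a log2 fold change of -0.33 with SE 0.13 (edgeR unadjusted p = 0.0346, adjusted p = 0.857). It was -0.23 without Ash1l het replicate 2, -0.45 without replicate 3 and -0.11 with replicates 1 and 2 both left out. Ebf1 is also made by mural cells, and the 12 endothelial and mural markers were all detected and none was called; 2 of the 12 were lower by sign, where 48.6% of all tested genes were. They summed to 400.1, 361.5 and 430.1 CPM in Ash1l het and to 325.0, 387.6 and 347.3 CPM in WT, and their part in the Ebf1 values was not tested.

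Zfp521 (ENSMUSG00000024420), which encodes a protein of many zinc fingers, stood at 28.6, 21.2 and 26.7 CPM in Ash1l het against 26.8, 26.7 and 31.6 CPM in WT. Its deposited span is chromosome 18, 13687013 to 13972733, minus strand. Ash1l het replicate 2 was the single library below the WT range. The log2 fold change was -0.16 with SE 0.14 (edgeR adjusted p = 0.910), and it was -0.040 without that library, -0.25 without Ash1l het replicate 1 and -0.071 with WT replicate 3 left out.

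Sp9, the zinc finger factor of indirect-pathway neurons, had the lowest fitted level of the 10. It stood at 12.5, 17.9 and 18.7 CPM in Ash1l het against 20.04, 23.1 and 20.4 CPM in WT, so every Ash1l het library lay below every WT library. Ash1l het was fitted at 77.2% of WT (95% interval 59.4% to 100.3%), with a log2 fold change of -0.37 with SE 0.17 (edgeR unadjusted p = 0.0524, adjusted p = 0.858). Without Ash1l het replicate 1, the lowest library, it was -0.22, and with replicates 1 and 2 both left out -0.18. The end of Sp9 overlaps Cir1 on the opposite strand. Cir1, looked at after its values were seen, stood at 19.2, 16.4 and 18.4 CPM in Ash1l het against 16.1, 12.3 and 14.3 CPM in WT, for a fitted log2 change of 0.34 ± 0.15 (SE; edgeR adjusted p = 0.857), and the 2 genes summed gave -0.044.

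**Figure D4:**
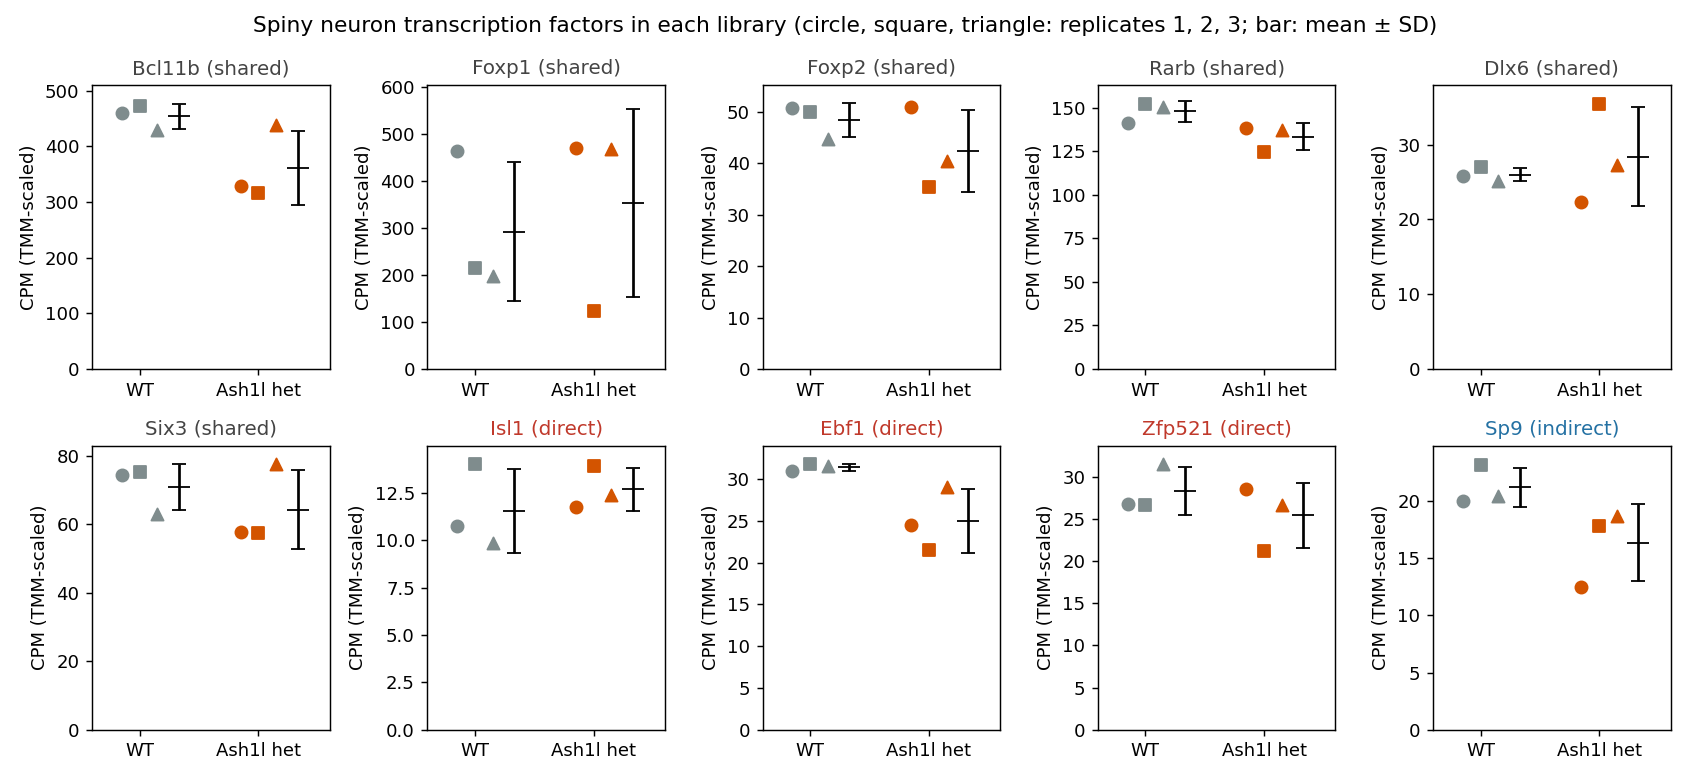
CPM of each factor in every library, with the mean and SD of each genotype; all axes start at 0 and differ in range. Rarb, Ebf1 and Sp9 are the 3 panels in which all Ash1l het points lie below all WT points.

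Every Ash1l het library lay below every WT library for 3 of the 10 factors, 1 in each class (Rarb, Ebf1, Sp9), and above for 0. Over all tested genes the shares were 5.53% below and 6.18% above. With 3 against 3 libraries a two-sided exact permutation test of a single gene cannot go below p = 0.1. As to spread, for 9 of 10 factors the coefficient of variation was larger in Ash1l het than in WT, Isl1 being the exception, and the same held for 68.5% of all tested genes.

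The low values of Bcl11b, Six3 and Ebf1 in Ash1l het replicates 1 and 2 came in libraries with low summed shared spiny neuron effectors. The summed astrocyte and oligodendrocyte markers were high in these libraries. The 18 shared spiny neuron effectors (receptor signalling, phosphodiesterase and channel genes) summed to 14663 and 15478 CPM in these 2 libraries, while Ash1l het replicate 3 held 17702 CPM and the WT libraries 17328 to 17836 CPM. Single effectors did not all follow the sum. Ppp1r1b, picked here after its values were seen, stood at 734, 1284 and 1369 CPM in Ash1l het and at 1246 to 1466 CPM in WT, so it was low in replicate 1 only. The 6 astrocyte markers summed to 1342, 1642 and 794 CPM in Ash1l het and to 857 to 1024 CPM in WT, and the 6 oligodendrocyte markers to 7001, 7985 and 5458 CPM and to 5301 to 6681 CPM. All were detected and 0 were called. The astrocyte sum was carried by Gfap, looked at after its values were seen, which stood at 412, 733 and 104 CPM in Ash1l het against 154, 62.1 and 83.7 CPM in WT. The 5 blood cell genes, globins and Alas2, were all higher in Ash1l het, with no overlap between genotypes. Of all tested genes, 6.18% were separated in that direction. The 5 genes summed to 123, 109.5 and 56.1 CPM in Ash1l het against 25.1, 35.4 and 23.0 CPM in WT. Their log2 fold changes ran from 1.55 to 2.32, with edgeR unadjusted p from 0.00202 to 0.00973. Of these 5, 0 were called (smallest edgeR adjusted p = 0.690). The lists for GABA interneurons, thalamus, microglia, choroid plexus and ependyma held 0 called genes. Microglia markers summed to 322, 431 and 325 CPM in Ash1l het and to 318 to 356 CPM in WT. Direct-pathway effectors summed to 762, 765 and 824 CPM in Ash1l het and to 734 to 777 CPM in WT. Those of the indirect pathway summed to 2094, 1973 and 2585 CPM and to 2123 to 2516 CPM. Foxp2, Rarb, Zfp521 and Sp9, also lower by sign, did not split between replicates 1 and 2 and replicate 3. The part of glia and blood in the levels of the factors was not tested.

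Scaled to the summed shared effectors in place of all genes, the log2 fold changes of the factors shifted upward along with the median of all genes, which went from 0.0063 to 0.15. On that scale Rarb, Six3 and Zfp521 were at -0.00013, -0.0074 and -0.0052, close to the effectors. Bcl11b, Ebf1 and Sp9 were still lower, at -0.20, -0.19 and -0.24, and Dlx6, Isl1 and Foxp1 were higher, at 0.27, 0.28 and 0.41. Foxp2 was at -0.040. Again 0 factors passed (smallest edgeR adjusted p = 0.643).

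**Figure D5:**
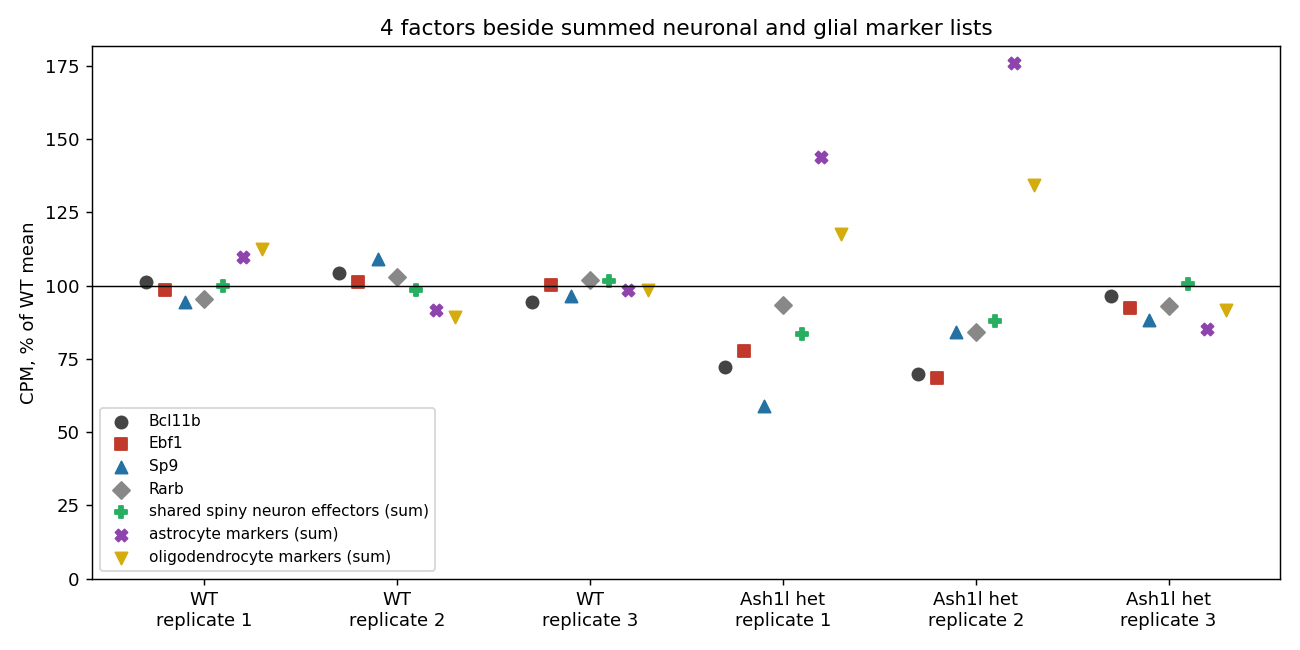
CPM in each library as a percentage of the WT mean for 4 factors and for the summed shared spiny neuron effectors, astrocyte markers and oligodendrocyte markers. In Ash1l het replicates 1 and 2 Bcl11b and Ebf1 lie between 68.4% and 77.8%, with the glial sums above 100%, and in replicate 3 they lie at 96.4% and 92.5%.

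The effector genes of the 2 pathways can be set beside their factors. Of 6 direct-pathway effectors 3 were higher and 3 lower by sign and 0 were called. Tac1, the substance P precursor, had a log2 fold change of 0.42 with SE 0.10 (edgeR adjusted p = 0.741), Eya1 0.26 (SE 0.17) and the muscarinic receptor Chrm4 -0.15 (SE 0.13). Of 6 indirect-pathway effectors tested 5 were lower by sign and 0 were called. Among the 5 is Penk, which was level between the genotypes at -0.00026 (SE 0.14). Adora2a was at -0.42 with SE 0.18 (edgeR adjusted p = 0.858), the kainate receptor subunit Grik3 at -0.12 (SE 0.093) and Drd2 at -0.23 (SE 0.24). Of the 18 shared effectors 15 were lower by sign, with a median of -0.21, and 0 were called. Over all tested genes 48.6% were lower by sign. The leading ones were the phosphatase regulator Arpp19 at 0.43 (SE 0.12), Syndig1l at -0.40 (SE 0.15) and the potassium channel subunit Kcnab1 at -0.27 (SE 0.12). The difference between the pathways was not tested.

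Relatives and partners of the factors were also measured. Of 23 such genes 17 could be tested. Among the 17, 13 were lower by sign, where 48.6% of all tested genes were, with a median of -0.11, and 0 were called. Bcl11a, the paralogue of Bcl11b, fitted at -0.30 with SE 0.11 (edgeR unadjusted p = 0.0244, adjusted p = 0.857), with WT at 63.7 ± 3.67 CPM and Ash1l het at 51.5 ± 5.67 CPM. Every Ash1l het library lay below every WT library for 2 of the 17, Bcl11a among them, and above for 0. Over all tested genes the shares were 5.53% and 6.18%. Dlx2, a paralogue of Dlx6, was at -0.59 (SE 0.25) and Rarg, the gamma receptor for retinoic acid, at -0.42 (SE 0.21). The relatives Isl2, Ebf2, Foxp3, Six4 and Six6, with 0 to 41 counts over the 6 libraries, did not pass the filter on low counts. Ebf3 and Ebf4 passed it, with 102 and 509 counts against 2670 for Ebf1.

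The retinoid pathway that feeds Rarb was also measured. Of 10 tested genes of retinoic acid synthesis, transport and breakdown 5 were higher and 5 lower by sign, with a median log2 fold change of 0.0054, and 0 were called. Dhrs3, a retinal reductase, was at -0.36 (SE 0.18) and the retinol transporter Stra6 at -0.31 (SE 0.20). Of 16 other transcription factors of the spiny neuron lineage 11 were lower by sign, where 48.6% of all tested genes were. Their median was -0.11, and 0 were called. Mef2c, an activity-regulated factor, was at -0.50 (SE 0.23) and the immediate-early factor Egr3 at -0.38 (SE 0.20).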

How the data were processed

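The deposited table, per the file headers, holds raw read counts per gene and FPKM for 6 dorsal striatum libraries; the counts equal those in the 6 per-sample files the authors deposited. CASAVA, FastQC, HISAT2, StringTie, edgeR and GRCm38 are named in the submitters' processing notes; the sources used here do not give their roles or settings. Counts were fitted in R 4.3.3 by edgeR 4.0.16, as a quasi-likelihood test with TMM scaling, the default filter (minimum count 10, 15267 genes left), robust dispersion and genotype as the single term, and p-values were adjusted over all tested genes. CPM are on the TMM scale, and intervals are 95% intervals of the fit. Totals of 12080663 to 18798694 counts set the counting errors quoted, which cover counting error only. The fit was tested on simulated data. The members and lists were chosen with earlier results of these data known. Genes named are Ash1l, the 10 factors, transcripts overlapping or flanking them, and of each pathway list any called gene plus the 3 with the smallest unadjusted p; Cir1, Gm20696, Top2b and Gfap were added after their values were seen. Some genes that this rule names are not reported here. Alternatives were DESeq2 1.42.0, the exact test of edgeR, limma 3.58.1 (voom, and log2(FPKM + 0.1) or log2(FPKM + 1) with a mean FPKM of at least 0.5), RLE, upper-quartile and effector scaling, no filter, a filter of 1 CPM in 3 libraries, a replicate block and each library left out.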

Additional observations from a re-analysis of the deposited data

How the results depend on the processing

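None of the 10 factors was called under any alternative run, and all kept the sign of their fold change except Dlx6 and Six3. The log2 fold change of Dlx6 was -0.019 with overlapping transcripts added and ran from -0.066 to 0.27 with single libraries left out; that of Six3 was 0.13 with Ash1l het replicates 1 and 2 both left out, chosen after seeing the data. The cause was not tested. Over all genes 2 were called; DESeq2 called 35, the exact test of edgeR 39, effector scaling 4, and 50 were called with Ash1l het replicates 1 and 2 both left out, where the lone library is assumed to vary like WT. Leaving out single libraries gave 1 to 13. With the replicate block 3 genes and 0 factors were called; same-numbered libraries had correlations of 0.056, -0.075 and 0.011 in their deviations, so the numbers were not taken to pair samples. The overlap of Sp9, Six3, Rarb and Dlx6 with opposite genes and the 3 libraries per genotype limit what can be told.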

Other observations

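Among genes averaging 1000 counts or more, 16 had a larger SD within genotypes than Foxp1, and 4 of them are named here after their values were seen. Cx3cl1, which encodes the neuronal chemokine fractalkine, stood at 632.4, 37.7 and 907.8 CPM in Ash1l het against 51.4, 1062 and 955 CPM in WT. The transcription factor gene Zbtb20 stood at 22.4, 16.5 and 194 CPM in Ash1l het against 385, 347 and 202 CPM in WT. Rbfox2, which encodes a splicing regulator, stood at 232, 236 and 70.1 CPM in Ash1l het against 242, 68.3 and 242 CPM in WT. Tgfa, which encodes a growth factor, stood at 260.6, 195.9 and 269.8 CPM in Ash1l het against 288.3, 25.5 and 38.3 CPM in WT, where Foxp1 stood at 471, 123 and 469 CPM and at 463, 216 and 199 CPM. As with Foxp1, WT replicate 1 was the highest WT library for Tgfa and Ash1l het replicate 2 the lowest Ash1l het library.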
